A study of Mus musculus with 4 samples.

Results

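The open chromatin of 9 genes of cytokine signalling was examined in RAW264.7 cells, a mouse macrophage line of wild-type genotype. These were the transcription factor genes Stat2, Stat3, Stat4, Stat5a, Stat5b and Stat6 and the inhibitor genes Socs1, Socs3 and Cish. They were chosen by name, with earlier results of these data known, from 17492 protein-coding genes with a start available here. All cells were given DIL-oxLDL, oxidized LDL with a fluorescent dye, at 25 ug/mL for 24 h. The control group (n = 2) had the solvent DMSO, and the esculetin group (n = 2) had 40 ug/mL esculetin, a plant coumarin. The assay was ATAC-seq, in which a transposase cuts accessible DNA. For each gene, every peak from 10 kb before its 5′ end to its 3′ end was read from the list of each library. Coordinates are those of mm10. Promoter peaks are those with the summit at most 1 kb from an annotated start.

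STAT proteins wait in the cytoplasm until a cytokine receptor and its JAK kinase phosphorylate them. They then form dimers, enter the nucleus and bind short palindromic sites near their target genes. Socs1, Socs3 and Cish are such targets in many cells, and their products block the receptor or the kinase, which closes a feedback loop. In macrophages, STAT2 acts downstream of type I interferon, STAT3 downstream of IL-6 and IL-10, STAT6 downstream of IL-4, and the STAT5 proteins downstream of GM-CSF.

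The lists held 8677 to 27833 peaks. Depth, taken as the genome-wide background coverage solved from the lists, was 6.51 reads in control replicate 1, 4.08 reads in control replicate 2, 4.97 reads in esculetin replicate 1 and 4.10 reads in esculetin replicate 2. The shortest list was that of esculetin replicate 1. Peak names in the lists labelled esculetin replicates 1 and 2 carry the numbers 2 and 3, so the labels and the lists number these libraries differently. Nothing in the labels says that replicates came from separate cultures, so the spread between them may be technical. Of 10 macrophage marker genes, 6 had a start available here, and Csf1r, Spi1, Adgre1 and Cd14 were not analysed. Of these 6, control replicates 1 and 2 had a promoter peak at 2 and 4, and esculetin replicates 1 and 2 at 0 and 1. Itgam and Mrc1 had none in any library. No promoter peak was called at 3 lymphocyte, 5 kidney epithelial or 2 fibroblast marker genes. The part of the fewer macrophage marker calls in the results was not tested.

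Promoter peaks were called at 7 and 8 of the 9 genes in control replicates 1 and 2, and at 4 and 7 in esculetin replicates 1 and 2. The same libraries had a promoter peak at 42.1%, 43.3%, 31.3% and 39.2% of all coding genes. The lowest value was thus that of esculetin replicate 1 for the 9 genes and for all coding genes. The difference of the group means was 2 genes fewer with esculetin, and it was 0.5 genes fewer without esculetin replicate 1 and 3.5 fewer without esculetin replicate 2. This direction depended on list length. When each list was shortened to its top 8677 peaks, the controls had a promoter peak at 2 and 3 of the 9 genes and the esculetin libraries at 4 and 7. Under the same truncation the share of all coding genes was 28.9% and 20.4% in the controls and 31.3% and 33.9% with esculetin, so the direction turned for all coding genes too.

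Stat2, Stat3, Socs1 and Socs3 had a promoter peak in all 4 libraries, which held for 28% of coding genes. Stat5a, Stat6 and Cish had one in every library but esculetin replicate 1, against 6.33% of coding genes. Stat5b had one in control replicate 2 alone, against 2.45%, and Stat4 had none, against 51.5%. No gene of the 9 was called in both controls only or in both esculetin libraries only. These patterns were found in 3.82% and 0.434% of coding genes. For 9 genes, a count of 0 is near both shares.

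**Figure D1:**
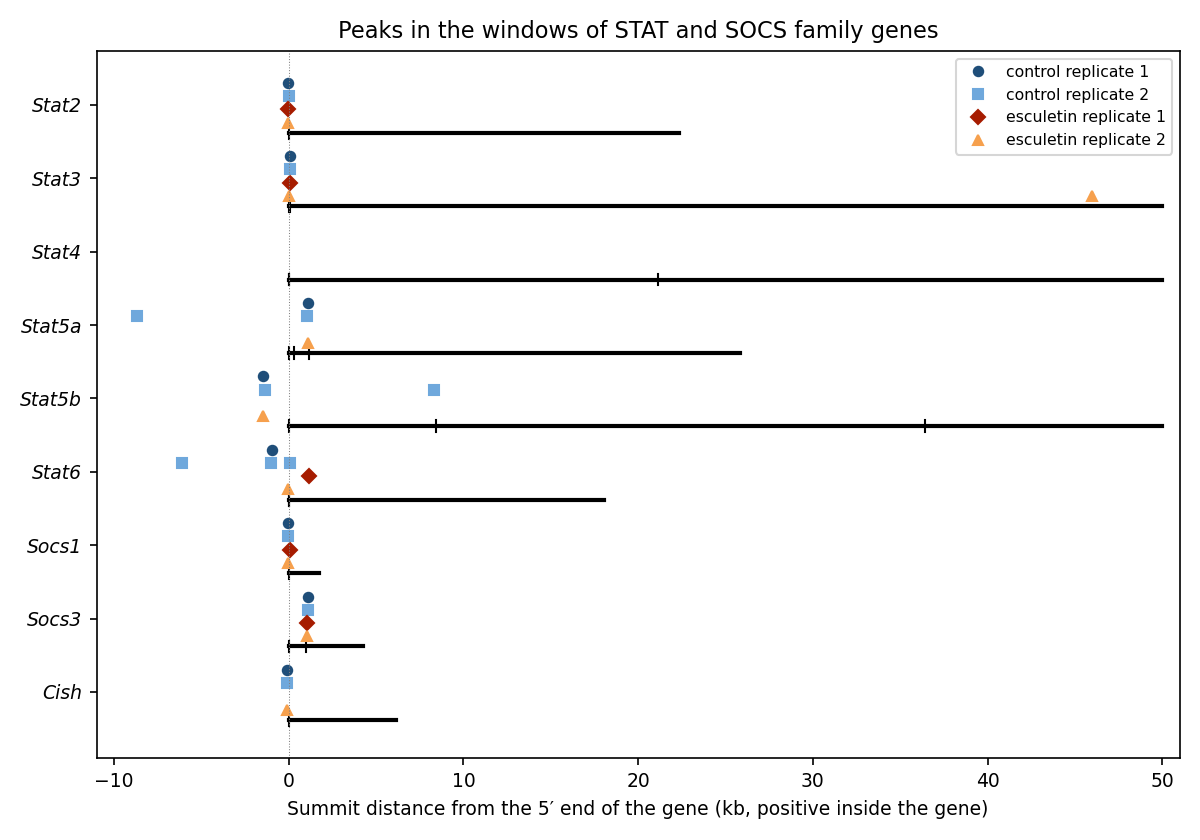
Summits of all peaks in the gene windows by library (1 symbol per peak), against distance from the 5′ end of the gene in kb. Black lines are the genes, cut at 50 kb, and ticks are annotated starts. Most summits lie at a start, and Stat4 has none.

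**Figure D2:**
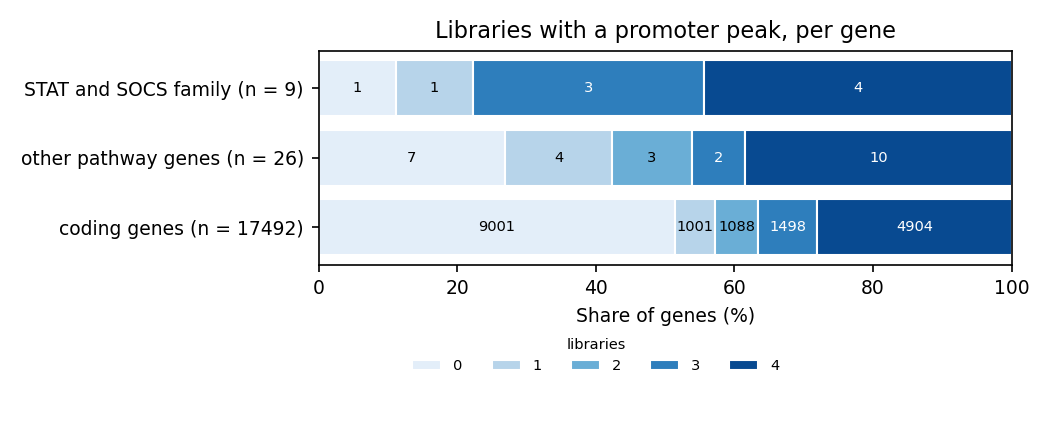
Share of genes (%) by the number of libraries with a promoter peak, for the 9 genes, 26 other genes of the pathway and all coding genes, with gene numbers in the bars. The 9 genes include 1 without a promoter peak, while 9001 of the 17492 coding genes have none.

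The windows of the 9 genes held 12 regions after peaks of the 4 lists were merged. Of these, 4 were called in all libraries, against 17.2% of all 36037 regions. These were the promoter regions of Stat2, Stat3, Socs1 and Socs3. A single region, upstream of Stat6, was called in both controls only, against 13.9% of all regions. No region was called in both esculetin libraries only, against 0.832%. With lists of equal length the counts turned to 0 in controls only and 2 in esculetin only. Regions in controls only numbered 3 without control replicate 1 or without esculetin replicate 2, and leaving out either esculetin library gave 1 in esculetin only.

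Values at each promoter are given in 3 ways. The percentile is the share of peaks in the same list with a −log10 p at or below that of the peak, so it depends on the length of the list. Summit coverage is the number of reads over the summit, with an exact 95% Poisson interval that covers counting error only. Scaled coverage is that number divided by the genome-wide background of the library. With 2 libraries per group the two-sided exact permutation test cannot give a p below 0.33, so the values per library lead.

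Of the 9 genes, Stat3 had the strongest promoter peak in every library. It encodes the factor through which IL-10 restrains macrophages. Control replicates 1 and 2 had percentiles of 93.6 and 93.1 at this peak, while esculetin replicates 1 and 2 had 84.7 and 96.7. The esculetin libraries thus lay on either side of the controls. Control and esculetin means were 93.4 ± 0.317 and 90.7 ± 8.51 (SD, n = 2), without separation (p = 1, exact permutation test). Their difference of -2.67 became 3.35 without esculetin replicate 1 and 8.16 with lists of equal length. Stat3 separated the groups on a pair of other percentile scales, in opposite directions. Ranked by fold over local background, both esculetin libraries (80.7 and 92.6) were below both controls (93.3 and 94.3). Set against the median percentile of the promoters called in all libraries, a scale chosen after seeing the data, both were above, with a difference of 4.94. Each gave p = 0.33 in the exact permutation test, the smallest it can give. How often the promoters called in all libraries separate on these scales was not computed. Summits lay 0 to 27 bp from an annotated start, and the merged region spanned 872 bp (chromosome 11, 100939239 to 100940110). It also lies in the lncRNA gene Gm46295, so the peak cannot be assigned to one of the pair. Coverage was 57 and 58 reads in the controls and 52 and 69 in the esculetin libraries. Scaled coverage was 8.76 (6.63 to 11.3) and 14.2 (10.8 to 18.4) in the controls and 10.5 (7.82 to 13.7) and 16.8 (13.1 to 21.3) with esculetin. Within each group the 2 libraries differed more than the group means did. The mean log2 ratio of esculetin to control was 0.25 (exact permutation p = 0.67), and it was -0.099 without control replicate 1 and -0.092 without esculetin replicate 2. By fold over local background the log2 ratio was -0.087.

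Esculetin replicate 2 had a further peak inside Stat3, 45908 bp from the nearest start (chromosome 11, 100893543 to 100893767). Its coverage was 18 reads (10.7 to 28.4) and its percentile 16.6. Every other peak inside the 9 genes lay at most 1139 bp from a start.

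Stat2, whose product forms the interferon-activated complex with IRF9, had a promoter peak at chromosome 10, 128270260 to 128270669. The gene Apof spans this place too (128268699 to 128271250). Percentiles were 79.0 and 74.4 in the controls and 46.9 and 79.0 in esculetin replicates 1 and 2. Only esculetin replicate 1 stood apart. Coverage was 42, 37, 28 and 41 reads in the same order, and scaled coverage was 6.45, 9.07, 5.64 and 10.0. Mean percentiles were 76.7 ± 3.28 with DMSO and 63.0 ± 22.7 with esculetin (SD, n = 2), and the exact permutation test gave p = 1. The difference of -13.7 turned to 2.33 without esculetin replicate 1 and to 22.8 with lists of equal length. On the scaled coverage the log2 ratio was -0.027, and it was 0.39 without esculetin replicate 1 and 0.22 without control replicate 2.

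The Stat2 window is shown because it holds 2 kinds of site searched for. It spans chr10:128270248-128270547 on the plus strand (GRCm38.p6, RefSeq), from 250 bases before the start to 50 bases after it. Capitals mark GAAA repeated after 2 bases, here on the minus strand (bases 29 to 38), and TTC and GAA held apart by 4 bases (bases 41 to 50).
Stat2: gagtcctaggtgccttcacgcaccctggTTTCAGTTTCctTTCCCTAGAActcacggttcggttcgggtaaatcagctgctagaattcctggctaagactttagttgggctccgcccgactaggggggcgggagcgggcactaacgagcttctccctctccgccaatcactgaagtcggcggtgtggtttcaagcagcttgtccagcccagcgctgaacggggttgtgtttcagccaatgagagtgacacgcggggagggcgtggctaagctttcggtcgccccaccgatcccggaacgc
Summits lay at bases 235, 244, 216 and 216 of the window in the 4 libraries, 170.5 to 210.5 bp from the centres of these matches. The second match lay at the edge of the peaks. Both control peaks covered all 10 of its bases, and those of esculetin replicates 1 and 2 covered 4 and 9. The first match was covered whole in control replicate 2 alone.

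Stat5a and Stat5b lie head to head on chromosome 11, with 5′ ends at 100859351 and 100859004. Their products are close relatives that carry GM-CSF and IL-3 signals. Neither 5′ end had a summit closer than 1 kb in any library. At Stat5a the peak lay 29 to 98 bp before an internal start at 100860484, and 1035 to 1104 bp into the gene. Percentiles were 54.4 and 71.6 in the controls and 75.8 in esculetin replicate 2, and there was no call in esculetin replicate 1. Coverage was 34 (23.5 to 47.5) and 33 (22.7 to 46.3) reads in the controls and 40 (28.6 to 54.5) in esculetin replicate 2. Scaled coverage was 5.22, 8.09 and 9.76, so the called esculetin library was above both controls. At the depth of esculetin replicate 1 these values come to 26.0 to 48.5 reads. The lowest coverage of any peak called there at the genome-wide background was 15 reads. Local background at the 3 called peaks was 7.36, 4.08 and 5.48 reads, against 6.51, 4.08 and 4.10 genome-wide, and a higher background needs more reads for a call. The signal of esculetin replicate 1 at Stat5a is not known.

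At Stat5b the call was weaker. Control replicate 2 alone had a peak, 82 bp before the start at 100850581 (chromosome 11, 100850283 to 100850751). Its percentile was 26.5 and its coverage 21 reads (13.0 to 32.1). The 300 bases around that start held 50 CpG, more than or as many as in 99.1% of coding promoter windows, and were 82.7% G or C. The start of Stat5b at 100822570 had no peak in any library.

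The start windows of the 2 genes share a stretch of 65 bases, 58 of them identical (89.2%). It is shown because the authors removed reads that map to several places and because summits of Stat5a lie in it. Capitals mark the 7 bases that differ. The Stat5a stretch spans chr11:100860418-100860482 on the plus strand and the Stat5b stretch chr11:100822563-100822627 on the minus strand (GRCm38.p6, RefSeq).
Stat5a: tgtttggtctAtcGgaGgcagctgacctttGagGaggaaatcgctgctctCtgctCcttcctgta
Stat5b: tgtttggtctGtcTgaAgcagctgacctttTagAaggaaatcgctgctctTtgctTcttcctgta
The summits of control replicate 1 (100860448) and esculetin replicate 2 (100860455) fell inside the Stat5a stretch, and that of control replicate 2 (100860386) fell before it. The part of read mapping in the calls was not tested.

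Stat6, which carries the IL-4 signal of alternative activation, was open in different places in different libraries. Control replicate 1 had a single peak 970 bp before the 5′ end, with a percentile of 6.06. Control replicate 2 had that peak too, at 996 bp with a percentile of 39.4, a weak one 51 bp after a start with a percentile of 2.66, and one 6136 bp upstream with a percentile of 28.96, which lies in the lncRNA gene Gm40802 (chromosome 10, 127634677 to 127640420). Esculetin replicate 2 had only a peak 68 bp before the start, with a percentile of 49.8, which was the highest of the gene. Esculetin replicate 1 had only a peak 1139 bp after a start, with a percentile of 17.3, and so no promoter call. The peak at the start was thus found in 1 library of each group.

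The upstream Stat6 region (chromosome 10, 127641878 to 127642196) was the one called in both controls only. Its coverage was 25 (16.2 to 36.9) and 27 (17.8 to 39.3) reads in control replicates 1 and 2, and scaled coverage was 3.84 and 6.62. Its −log10 q was 3.26 and 8.42. Requiring a −log10 q of at least 5 removed the call of control replicate 1, and then no region was called in both controls only. The summits lie just inside the 1 kb limit, so a narrower promoter window drops them. At the start, esculetin replicate 2 had 31 reads (21.1 to 44.0) and control replicate 2 had 18 (10.7 to 28.4).

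Stat4, which carries the IL-12 signal mainly in T cells and NK cells, had no peak in any library over its 120084 bp and the 10 kb before them. No peak in the window was found for 36.3% of coding genes. Its 2 start windows held 2 and 4 CpG, the lowest numbers of the 9 genes. Of the 5402 coding genes with at most 5 CpG in their richest window, 91.7% had no promoter peak in any library. The inner window is shown for contrast with the open promoters (chr1:52007990-52008289, plus strand, GRCm38.p6, RefSeq). Capitals mark GAAA repeated after 2 bases, at bases 154 to 163.
Stat4: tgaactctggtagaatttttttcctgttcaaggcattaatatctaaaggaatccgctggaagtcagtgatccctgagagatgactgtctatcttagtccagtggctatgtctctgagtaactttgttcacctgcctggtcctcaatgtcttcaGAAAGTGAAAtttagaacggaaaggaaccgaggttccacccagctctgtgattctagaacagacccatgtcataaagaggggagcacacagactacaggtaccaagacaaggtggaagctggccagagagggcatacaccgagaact
The letters that mark an interferon-type site were present here without a peak, and the same spacing lay under the peaks of Socs1.

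**Figure D3:**
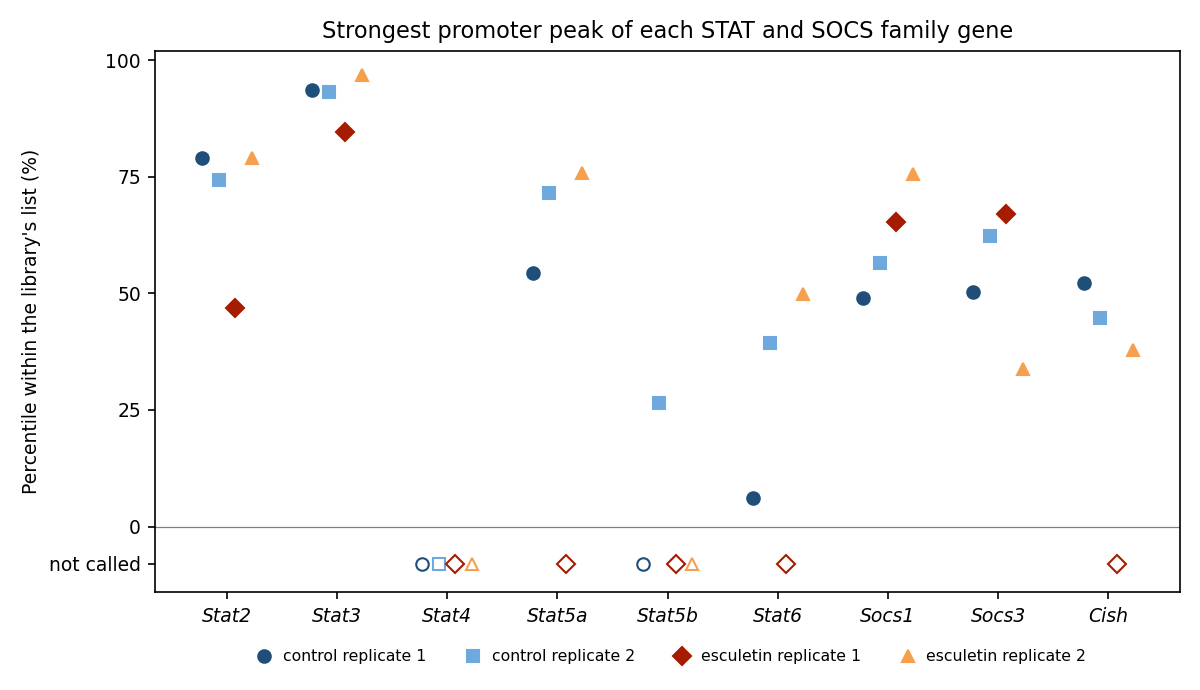
Percentile (%) within the list of its own library of the strongest promoter peak of each gene. Filled symbols are called peaks and open symbols below 0 are genes without a promoter call. Socs1 is the gene where both esculetin libraries lie above both controls, and esculetin replicate 1 has no call at 5 of the 9 genes.

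Of the 4 genes among the 9 with a call in every library, Socs1 was the one whose percentiles by −log10 p did not overlap between groups. The direction was the same on the other percentile scales computed, by fold and against the shared median. Its product binds JAK kinases and ends the interferon-gamma signal. Control replicates 1 and 2 had percentiles of 49.0 and 56.6, and esculetin replicates 1 and 2 had 65.4 and 75.6. The control mean was 52.8 ± 5.35 and the esculetin mean 70.5 ± 7.23 (SD, n = 2), with p = 0.33 by the exact permutation test, the smallest it can give. The difference of 17.7 was larger than either SD and ranged from 12.6 to 22.8 when one library was left out. By rank from the top the peak stood at 9992 and 12087 in the controls, outside their 8677 strongest peaks, so that lists of equal length gave no percentile for it.

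The depth-scaled values were less separate. Coverage at the Socs1 summit was 37 (26.1 to 51.0) and 35 (24.4 to 48.7) reads in the controls and 42 (30.3 to 56.8) and 46 (33.7 to 61.4) in the esculetin libraries. Scaled coverage was 5.69 (4.00 to 7.84) and 8.58 (5.98 to 11.9) against 8.46 (6.09 to 11.4) and 11.2 (8.21 to 14.97). Control replicate 2 was above esculetin replicate 1, so the groups overlapped, and the counting intervals of all but the lowest and highest library overlapped. The mean log2 ratio was 0.48 (exact permutation p = 0.67) and stayed above 0 whichever library was left out (0.18 to 0.78).

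Libraries also differed in how far promoters rose above background. Over the 4904 coding promoters called in all libraries, the median scaled coverage was 7.07 and 9.81 with DMSO and 7.25 and 10.0 with esculetin, in replicate order. Relative to these medians, Socs1 stood at 0.804 and 0.875 in the controls and 1.17 and 1.12 in the esculetin libraries. This scale was chosen after seeing the data. On it the groups did not overlap, with a log2 ratio of 0.45 (exact permutation p = 0.33).

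Such separation was common. Of the 4904 shared promoters, both esculetin libraries were above both controls in 14.9% by percentile and below in 29.9%. By scaled coverage the shares were 18.1% and 10.7%, and by scaled coverage relative to the medians 28.6% and 25.4%. Of the 4 genes among the 9 that were called in all libraries, 1 was above and 0 below by percentile. The counts were the same by scaled coverage relative to the medians, and 0 were above or below by scaled coverage. Stat3 was also above by percentile set against the shared median and below by percentile of fold, scales for which no share was computed. With 1 of 4 genes beside such shares, the order of the libraries at Socs1 is not particular to it.

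The Socs1 window is shown because its sites lie under the peak in all 4 libraries (chr16:10785487-10785786, minus strand, GRCm38.p6, RefSeq). Capitals mark GAAA repeated after 2 bases, which occurs at bases 168 to 177 and, sharing 4 bases with the first, at bases 174 to 183.
Socs1: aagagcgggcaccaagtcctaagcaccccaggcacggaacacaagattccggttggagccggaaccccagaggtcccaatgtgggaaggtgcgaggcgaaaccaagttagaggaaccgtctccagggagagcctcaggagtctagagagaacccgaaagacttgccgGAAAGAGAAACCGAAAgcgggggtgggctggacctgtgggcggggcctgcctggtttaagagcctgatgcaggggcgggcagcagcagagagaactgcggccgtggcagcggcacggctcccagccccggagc
Summits lay 20 and 66 bp before the start in the controls, and 67 bp after and 45 bp before it in esculetin replicates 1 and 2. The distance from the summit to the centre of the second match was 52.5, 6.5, 139.5 and 27.5 bp. The merged region spanned 800 bp, and the peak was 774, 240, 582 and 638 bp wide.

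Socs3, which blocks the IL-6 receptor and so the STAT3 signal, showed no common direction. Percentiles were 50.2 and 62.2 in the controls and 67.1 and 33.8 in esculetin replicates 1 and 2. The esculetin libraries were the highest and the lowest of the 4. Their means, 56.2 ± 8.50 in the controls and 50.4 ± 23.6 with esculetin (SD, n = 2), were not separated (p = 1, exact permutation test). The difference of -5.82 was 0.19 without control replicate 2 and 10.8 without esculetin replicate 2. Coverage was 37 and 38 reads in the controls and 43 and 29 with esculetin, or 5.69, 9.32, 8.66 and 7.07 after scaling. The log2 ratio of scaled coverage was 0.10, and it was -0.25 without control replicate 1 and -0.041 without esculetin replicate 1. All summits lay 71 to 114 bp after the start at 117969366, which is not the 5′ end of the gene record.

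The Socs3 window is shown for its single palindrome (chr11:117969317-117969616, minus strand, GRCm38.p6, RefSeq). Capitals mark TTCNNNGAA, the spacing most STAT dimers bind, at bases 97 to 105.
Socs3: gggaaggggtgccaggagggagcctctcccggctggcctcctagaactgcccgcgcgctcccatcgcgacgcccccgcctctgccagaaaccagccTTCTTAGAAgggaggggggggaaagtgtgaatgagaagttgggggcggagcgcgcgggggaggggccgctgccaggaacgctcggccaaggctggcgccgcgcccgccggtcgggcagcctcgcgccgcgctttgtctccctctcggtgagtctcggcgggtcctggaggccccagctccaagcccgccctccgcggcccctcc
Both esculetin peaks covered this match, 221 and 244 bp from their summits. Neither control peak did, and both control summits lay 264 bp from it. The match lay near the edge of the peaks, at 117969512 to 117969520, and both control peaks ended at 117969450. How often peak edges differ between the groups in this way at other promoters was not computed. The peak was 379 and 535 bp wide in the controls and 451 and 346 bp in the esculetin libraries.

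Cish encodes a SOCS protein that STAT5 induces and that in turn damps STAT5 signals. Its promoter peak had percentiles of 52.3 and 44.7 in the controls and 37.8 in esculetin replicate 2, and was not called in esculetin replicate 1. Both controls were thus above the called esculetin library by percentile. Coverage was 34 (23.5 to 47.5), 29 (19.4 to 41.6) and 26 (16.98 to 38.1) reads. After scaling the values were 5.22, 7.11 and 6.34, and esculetin replicate 2 lay between the controls. At the depth of esculetin replicate 1 the scaled values come to 26.0 to 35.3 reads. The lowest peak called there at the genome-wide background had 15 reads. Local background at the 3 Cish peaks was 7.68, 5.66 and 5.56 reads, against 6.51, 4.08 and 4.10 genome-wide, and a higher background needs more reads for a call. Coverage without a call is not in the lists, so the signal of that library at Cish is not known.

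The Cish window is shown because it holds a pair of palindromes (chr9:107296409-107296708, plus strand, GRCm38.p6, RefSeq). Capitals mark TTCNNNGAA, at bases 251 to 259, from the start itself, and at bases 262 to 270.
Cish: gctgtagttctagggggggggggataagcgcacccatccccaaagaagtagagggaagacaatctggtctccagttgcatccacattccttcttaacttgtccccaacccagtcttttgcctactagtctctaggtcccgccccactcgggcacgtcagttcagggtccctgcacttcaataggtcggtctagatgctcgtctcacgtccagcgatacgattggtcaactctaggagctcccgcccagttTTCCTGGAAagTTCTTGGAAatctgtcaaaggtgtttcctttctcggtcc
All 3 peaks covered both matches. Summits lay 105, 86 and 72 bp before the start in control replicates 1 and 2 and esculetin replicate 2, so that the matches were 76 to 120 bp from them.

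**Figure D4:**
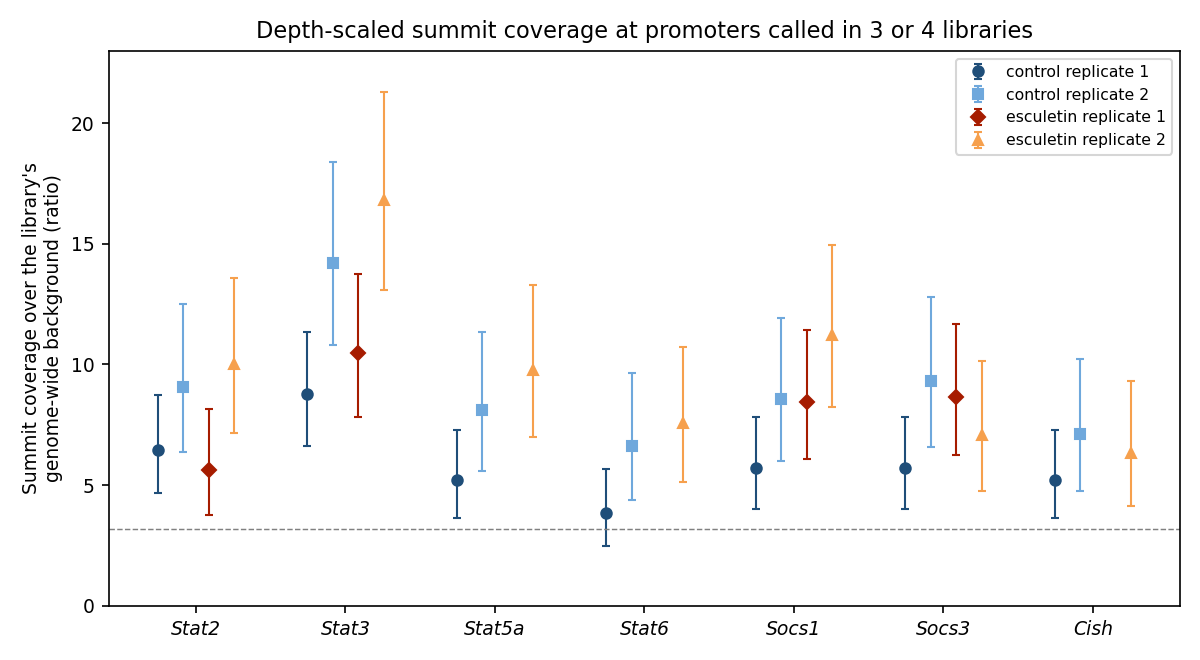
Summit coverage over the genome-wide background of the library (a ratio) for the strongest promoter peak of genes called in 3 or 4 libraries. Bars are exact 95% Poisson intervals, and the dashed line at 3.19 is the highest of the libraries' lowest called values. Most intervals overlap between groups, and Stat3 has the highest values.

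The 3 spacings were searched on both strands of the 12 start windows of the 9 genes and of all 21263 windows of coding genes. TTCNNNGAA was in 7.69% of all windows and in 2 of the 12, those of Socs3 and Cish. TTC and GAA with 4 bases between them, the spacing STAT6 prefers, was in 6.35% and in that of Stat2. GAAA repeated after 2 bases, the core of the interferon-stimulated response element, was in 3.35% and in windows of Stat2, Stat4 and Socs1. A match gives the letters only and is no measure of binding. Windows of the promoters called in all libraries held 22 (Stat2), 15 (Stat3), 18 (Socs1) and 31 (Socs3) CpG. Of the genes called in 3 libraries, the windows of Stat5a (at its called start), Stat6 and Cish held 27, 8 and 11, so CpG number and calls did not follow one order among the 9 genes. The richest window of coding genes had a median of 25 CpG where all libraries had a promoter peak and 5 where none had.

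The rest of the pathway was read from a list of 38 genes, 26 of which had a start available here. Socs2, Socs5, Socs6, Socs7, Pias2, Pias4, Ptpn2, Il10ra, Il10rb, Csf2rb, Il12rb1 and Il27ra were not analysed here. Promoter peaks were called at 15 and 17 of the 26 genes in the controls and at 11 and 13 in esculetin replicates 1 and 2, beside the 42.1%, 43.3%, 31.3% and 39.2% of all coding genes. The mean difference of 4 genes fewer with esculetin became 2.5 more with lists of equal length, and 2 fewer with a −log10 q of at least 5. All 4 libraries shared 10 of the 26 genes, against 28% of coding genes. Il6ra and Csf2rb2 were called in both controls only, against 3.82%, and no gene in both esculetin libraries only, against 0.434%.

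Of the 10 genes called in all libraries, Jak1, Tyk2, Socs4, Ptpn1 and Il6st had both esculetin percentiles below both controls, and Pias1 had them above. These 5 and 1 of 10 genes stand beside 29.9% and 14.9% of shared promoters. By scaled coverage as well as percentile, Ptpn1 alone was below and Pias1 alone above. Of the 4904 shared promoters, 9.69% were below and 10.8% above by both measures, so 1 gene of 10 in each direction is near the background.

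Of the 4 kinases, Jak1, Jak2 and Tyk2 had a promoter peak in all libraries, against 28% of coding genes. Jak1, which serves interferon and IL-6 receptors, had percentiles of 93.7 and 89.3 in the controls and 80.4 and 86.7 with esculetin. Its scaled coverage was 8.45 and 12.01 against 8.66 and 10.7 and overlapped. Jak2 had percentiles of 44.1 and 81.6 against 68.5 and 72.0, and Tyk2 of 61.5 and 78.6 against 47.6 and 59.5. Jak3, which works with the common gamma chain, was called in control replicate 2 alone, with a percentile of 3.99.

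Among the inhibitors, 4 of 6 had a promoter peak in all libraries, beside the same 28%. Pias1, which holds back STAT-driven transcription, had percentiles of 82.1 and 88.0 in the controls and 93.2 and 88.6 with esculetin. Its scaled coverage was 7.38 and 12.01 against 13.3 and 12.7. Ptpn1, a phosphatase of JAK kinases, had 92.9 and 80.3 in the controls and 51.7 and 51.0 with esculetin, and its scaled coverage was 7.84 and 9.81 against 6.24 and 7.32. Socs4 had percentiles of 81.4 and 71.0 against 56.3 and 55.8, and scaled coverage of 6.45 and 8.33 against 6.04 and 6.59, which overlapped.

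Of the 16 receptor genes, 3 had a promoter peak in all libraries and 6 in none, against 28% and 51.5% of coding genes. Ifnar1, a chain of the type I interferon receptor, had percentiles of 96.3 and 93.3 in the controls and 90.6 and 94.8 with esculetin. Ifngr1, of the interferon-gamma receptor, had 97.8 and 90.7 against 84.0 and 97.7. Il6st, the signalling chain shared by IL-6 family receptors, had 76.1 and 80.4 against 57.8 and 76.0. Il6ra, which binds IL-6 itself, had 86.6 and 43.9 in the controls and no promoter call with esculetin. Its scaled coverage in the controls was 9.83 and 8.58. Csf2rb2 was weak in both controls, at 12.8 and 1.70, and is a near copy of Csf2rb, so its reads are uncertain. Il4ra, the receptor chain upstream of STAT6, was called in esculetin replicate 2 alone, with a percentile of 43.8, and is named after its values were seen.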

How the data were processed

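RAW264.7 cells received DIL-oxLDL with DMSO or esculetin and ATAC-seq peaks were compared in 4 libraries, grouped by the treatment in the labels. Per the labels' processing notes and the study's methods, the authors trimmed reads with Trim Galore, aligned them to mm10 with Bowtie2, used Sambamba to discard duplicates and reads mapped to several places, and ran MACS2 on each library. Discarding the latter lowers coverage in near-identical gene copies. MACS2 options are not given in the sources used here. The deposited lists give the fold (a linear ratio of summit coverage to local background), and, for each summit, the −log10 p and −log10 q. A deposited score is about 10 times the −log10 q and was not used.

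Summit coverage and local background were solved from the fold and the −log10 p. On 2000 simulated peaks the procedure returned both values for 100% of peaks. The lowest local background of a list was taken as its genome-wide background, which is proportional to depth. Genes, starts and promoter sequences came from RefSeq tables of GRCm38.p6, the assembly of mm10. Starts were those of the promoter table plus the 5′ end of each gene in it. Genes outside it were not analysed, which does not mean that they lack an annotated start. Exons were not used here.

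All 9 genes were named, and pathway genes by a fixed rule: those called in both libraries of a single group, the kinases, and up to 6 others strongest in all libraries. The members and lists were chosen with earlier results of these data known. Single values were compared with two-sided exact permutation tests. Counts over the genes were described without a test beside the same share of all coding genes or regions. Alternatives changed the promoter window, the starts, the q limit, the list length, the gene window, the overlap, the percentile measure and the libraries used. Tools were SciPy 1.17.1, NumPy 2.4.6, pandas 2.3.3 and matplotlib 3.10.9 under Python 3.11.15.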

Additional observations from a re-analysis of the deposited data

How the results depend on the processing

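With 2 libraries per group the exact test gives no p under 0.33, so only direction and size are described. Among alternative values, 19 changed sign and 9 counts moved beyond the spread between replicates or by more than 1.5 times. The other 79 were counted in neither class, though differences among them often changed in size. Some changed by more than 1.5 times, as from -2 to -0.5 genes with a promoter peak without esculetin replicate 1. Socs1 changed sign in none, by percentile or by scaled coverage.

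With equal list lengths the difference in genes with a promoter peak was 3 in place of -2 for the 9 genes and 2.5 in place of -4 for the pathway, peaks in the windows differed by 3.5 in place of -2, and percentiles of Stat2 and Stat3 by 22.8 and 8.16. Regions in all libraries then numbered 2, in controls only 0 and in esculetin only 2; Socs1 and Socs3 gave no percentile. This setting truncates the longer lists. With a −log10 q of at least 5 the pathway difference was -2 and no region was in controls only. Against the shared median, chosen after seeing the data, percentiles of Stat3 and Socs3 differed by 4.94 (exact permutation p = 0.33) and 1.79 (p = 1). By fold that of Stat3 differed by -7.13 (exact permutation p = 0.33). By fold over local background the log2 ratio was -0.087 for Stat3 and -0.029 for Socs3; the cause was not tested.

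Leaving out each library gave percentile differences of -29.8 to 2.33 (Stat2), -8.68 to 3.35 (Stat3) and -22.5 to 10.8 (Socs3), and log2 coverage ratios of -0.44 to 0.39, -0.099 to 0.60 and -0.25 to 0.46. It gave 1 to 3 regions in controls only and 0 to 1 in esculetin only. With the replicate block the Socs1 difference was again 17.7 (exact sign-flip p = 0.5, the smallest it can give). The labels do not say whether same-numbered libraries are paired, and the lists carry other numbers. Deviations from the group means correlated at -0.0014 for same-numbered libraries over 4904 promoters. A correlation cannot show a shift common to all promoters, so it does not decide the pairing. Median scaled coverage at these promoters was 7.07 and 7.25 in control and esculetin replicate 1, and 9.81 and 10.0 in replicate 2. The block changed no direction.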
